A study of Homo sapiens with 4 samples.

Results

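Integrins are the cell surface receptors that join the matrix outside a cell to the actin cytoskeleton inside it. Each receptor is a pair of an alpha and a beta subunit, and the alpha subunit largely sets which matrix protein is bound. In stellate cells of the liver, integrins anchor the cell to fibronectin, collagen and laminin, and integrins of the alpha V class are known to release TGF-β from its latent form. The genes described here are 10 integrin subunits chosen by name, the 6 alpha subunits ITGA1, ITGA2, ITGA3, ITGA5, ITGA11 and ITGAV and the 4 beta subunits ITGB1, ITGB3, ITGB4 and ITGB5. Of these, 4 had a cytidine position in the tables used here, and these were ITGA3, ITGA5, ITGB1 and ITGB5, among 6112 genes with a listed position in all. They held 38 of 17862 distinct positions. The TGF-β1 list had 31 of these among 11735 in all, and the control list had 10 among 8112.

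The study compared LX-2 cells, an immortalised human hepatic stellate cell line, after 24 h with recombinant human TGF-β1 at 5 ng/ml with untreated LX-2 cells, in 2 libraries per group described as biological replicates. All 4 libraries came from the wild-type line, kept in the same medium with serum and antibiotics, and were made from polyadenylated RNA for sequencing with sodium borohydride (NaBH4). NaBH4 reduces N4-acetylcytidine (ac4C), an acetylated cytidine that the enzyme NAT10 writes into RNA, to a base that can be misread when the RNA is copied into DNA. No library labelled as made without NaBH4 or without NAT10 was among the samples, and whether a listed cytidine mismatch marks ac4C was not tested. One line, and 1 growth factor dose and time, is the extent of the model.

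Each group had 1 deposited table for its 2 libraries, with 1 mismatch difference per position, called so here after the column name and given in percent, and 1 p-value of the authors. The sources used here do not say which values the difference is taken between. Reads, depth and values per library are not given, so no value below has a replicate error, no position has an interval, and no difference between the groups has a replicate check. Intervals of shares are exact 95% binomial (Clopper-Pearson) intervals; they cover counting error only and treat positions of a gene as independent, which they may not be. A gene with more reads can have more listed positions, and whether transcript level or sequencing depth differed between the groups was not tested. In bulk RNA, fewer cells with a transcript and less of it per cell cannot be told apart. Where a table does not list a position, nothing is known of it in that group. Of 12 stellate cell and myofibroblast markers 7 had a listed position, with 32 positions after TGF-β1 and 9 in control, among them ACTA2, TAGLN and COL1A1. None of 7 hepatocyte or 5 endothelial markers was listed, while SOX9 stood for 4 cholangiocyte markers and CD68 for 5 macrophage and leukocyte markers.

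More cytidines of the integrin transcripts were listed after TGF-β1 than in untreated cells, and nearly all of them lay in the alpha subunits ITGA3 and ITGA5. The 4 listed genes had 31 positions after TGF-β1 and 10 in control, a ratio of 3.10, against 1.46 over all genes. The TGF-β1 table held 75.6% of these 41 listings (59.7 to 87.6), with each of the 3 shared positions counted in both tables. An even split is not the background: counted per gene, all genes together had 12076 listings after TGF-β1 and 8298 in control. Of the 4 genes, 3 had more positions after TGF-β1, which was so for 51.2% of all listed genes, and 1 had equal numbers, which was so for 13.6%. None had fewer, against 35.3% of all genes. Genes with many listings leaned further to TGF-β1. The 338 genes with 10 or more listings over both tables had 3181 and 1687 listings, a ratio of 1.89. Of these genes 80.8% had more positions after TGF-β1. ITGA3 and ITGA5, with 18 listings each, belong to these 338 genes. The TGF-β1 share of all listings lies just below the interval of the 41 integrin listings (59.7 to 87.6). That of the 338 genes lies inside it, so no excess over genes with many listings was detectable.

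**Figure D1:**
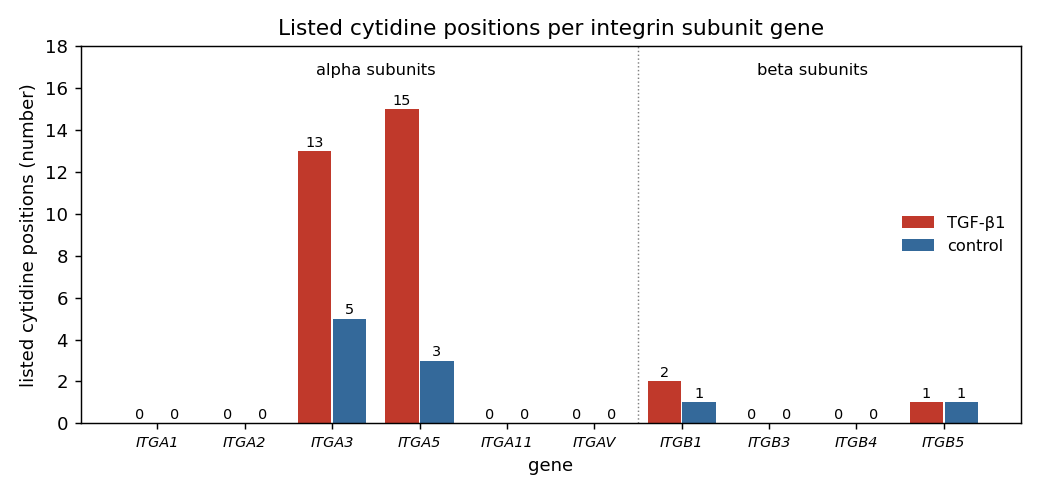
Number of listed cytidine positions (vertical axis) in each of the 10 integrin subunit genes (horizontal axis), with TGF-β1 in red and control in blue; 0 means that the gene had no row in that table. ITGA5 had 15 and 3 positions, ITGA3 had 13 and 5, and no beta subunit had more than 2.

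The alpha subunits had 28 positions after TGF-β1 and 8 in control, a ratio of 3.50, and the beta subunits had 3 and 2, a ratio of 1.5. Over all genes the ratio was 1.46, and over the 338 genes with 10 or more listings it was 1.89. The TGF-β1 table held 77.8% of the 36 alpha listings (60.8 to 89.9) and 60% of the 5 beta listings (14.7 to 94.7). These intervals overlap over the whole of the alpha range, so a difference between alpha and beta subunits in the lean toward TGF-β1 was not detectable with 5 beta listings. Both intervals also hold the TGF-β1 share of the 338 genes with 10 or more listings. The classes also differed in how many positions they had, 36 listings in 2 alpha genes and 5 in 2 beta genes. RefSeq (GRCh38.p14) gives a genomic span of 57913 bases for ITGB1 and 139471 for ITGB5, and of 34372 for ITGA3 and 24006 for ITGA5. Spans include introns and transcript lengths were not used here, so whether length bears on the number of positions was not tested.

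**Figure D2:**
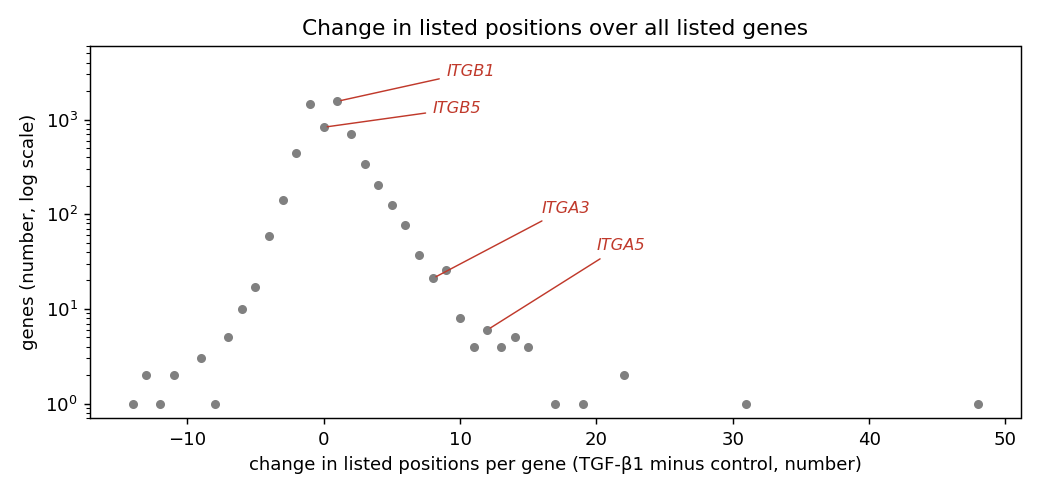
Number of genes (vertical axis, log scale) at each change in listed positions, TGF-β1 minus control (horizontal axis), over 6112 listed genes; each grey point is 1 value of the change. ITGA5 with a change of 12 and ITGA3 with 8 lie in the right tail, while ITGB1 with 1 and ITGB5 with 0 lie where most genes are. Genes with few listings cannot lie in either tail.

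ITGA5 (ENSG00000161638) codes for the alpha subunit that pairs with ITGB1 to form the classical fibronectin receptor. It had 15 listed positions after TGF-β1 and 3 in control on the minus strand of chromosome 12. A change of 12 or more was reached by 25 of the 6112 genes (0.409%), and 37 genes had as many positions as ITGA5 in the TGF-β1 table, against 890 with as many as its 3 in control. The control table thus placed ITGA5 among many genes and the TGF-β1 table among few. Mismatch differences of the gene ran from 1.57% to 14.9% with a median of 4.08% after TGF-β1, and the control positions had 1.74%, 3.24% and 6.82%. The ranges overlap.

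One ITGA5 cytidine was in both tables. It lies in the 3'UTR at chromosome 12 position 54396141 of hg38, 880 bases from the annotated 3' end of the gene, and had 14.9% after TGF-β1 and 6.82% in control. The difference was 8.06 percentage points, larger than at 90.3% of the 1985 positions that both tables held, and the authors' p-values were 7.11e-19 after TGF-β1 and 0.00276 in control. This was also the highest mismatch difference of the gene in either table. The cytidine directly beside it, position 54396142, was listed after TGF-β1 only, at 3.57% with a p-value of exactly 0.

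Over all genes, 16.9% of the 11735 TGF-β1 positions were also listed in control, and in ITGA5 1 of 15 was, near that share. The other 14 ITGA5 positions of the TGF-β1 table were not listed in control, which is no result about ITGA5. The highest of them were a coding cytidine at position 54404767 with 10.9% and a 3'UTR cytidine at position 54395754 with 8.38%, and the authors' p-values there were 6.65e-10 and 6.71e-32. The lowest had 1.57%, and their median was 3.82%. By segment, 11 of the 15 positions after TGF-β1 were coding and 4 were in the 3'UTR, against 2 coding and 1 3'UTR position in control. The 3'UTR positions had a median of 6.23% after TGF-β1, and the coding ones 3.47%. Near 2 of the TGF-β1 positions stood the coding cytidines that were in control only. Position 54403754 had 1.57% after TGF-β1, and position 54403649, 105 bases away, had 1.74% in control. Position 54419073 had 2.89% after TGF-β1, and position 54419092, 19 bases away, had 3.24% in control. Within each pair the values differ by less than 1 point, but the cytidines are separate.

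ITGA3 (ENSG00000005884) codes for the alpha subunit that pairs with ITGB1 as a laminin receptor. It had 13 listed positions after TGF-β1 and 5 in control on the plus strand of chromosome 17. A change of 8 or more was reached by 84 of the 6112 genes (1.37%). Genes with few listings cannot reach it, and the 338 genes with 10 or more listings had a median change of 4. The mismatch differences ran from 1.37% to 12.4% with a median of 5.14% after TGF-β1, and from 2.28% to 7.44% with a median of 2.64% in control. The ranges overlap. At or above 10% were 3 of 13 positions after TGF-β1 and 0 of 5 in control, near the 18.5% and 12.4% of all positions.

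Both ITGA3 cytidines that the tables share were coding. Position 50071317 had 5.50% after TGF-β1 and 2.64% in control, a difference of 2.87 points. Position 50087763 had 9.63% and 7.44%, a difference of 2.19 points. The authors' p-values were 1.05e-16 and 6.07e-27 after TGF-β1, against 6.84e-05 and 0.000117 in control. With the ITGA5 position, all 3 shared integrin cytidines were higher after TGF-β1, as were 78.4% of all 1985 shared positions, and their median difference was 2.87 points against 1.73 over all. With 3 positions from 2 genes, a count of 3 of 3 is near that background and is no result about integrins. No beta subunit position was in both tables, of 3 after TGF-β1 and 2 in control. Over all genes 16.9% and 24.5% of positions were shared, so with so few positions this is no difference between the classes.

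**Figure D3:**
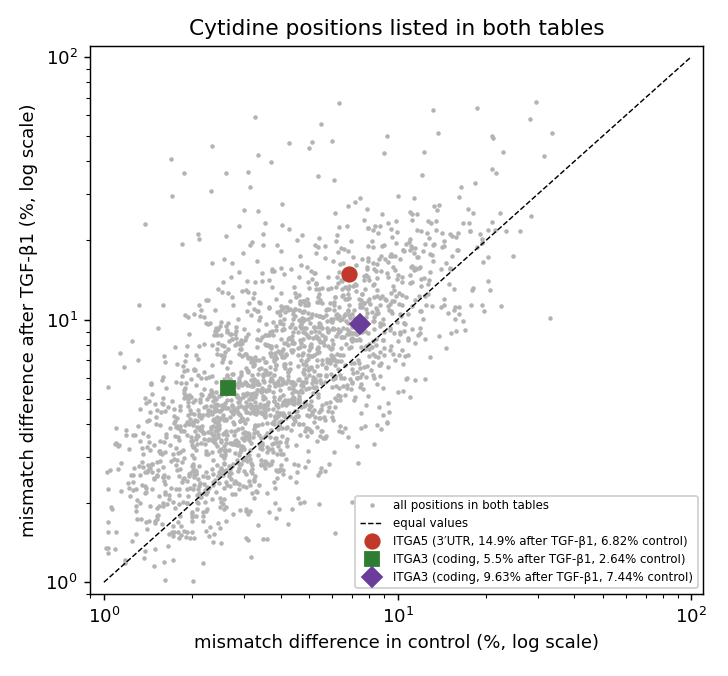
Mismatch difference after TGF-β1 (vertical axis, percent, log scale) against control (horizontal axis, percent, log scale) for the 1985 cytidine positions in both tables (grey), with the 3 integrin positions as large symbols and a dashed line of equal values. The 3 integrin positions lie above the line, within the cloud of all shared positions.

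At the 5' end of ITGA3, 3 cytidines stood at steps of 21 bases, alternating between the tables. Position 50056104, in a noncoding exon of the transcript ENST00000505306, had 12.4% after TGF-β1 (p-value of the authors 1.22e-25) and was the highest mismatch difference of the gene. Position 50056125, in the 5'UTR of ENST00000320031, had 2.38% in control. Position 50056146, in the same 5'UTR, had 3.29% after TGF-β1. This triple was singled out after its values were seen. It held 1 of the 3 positions of the gene that control alone had.

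The second highest ITGA3 position was a coding cytidine at 50088301, with 11.5% after TGF-β1 (p-value of the authors 2.03e-38), next to position 50088300 with 2.11%. Both were annotated to ENST00000320031 alone. The transcript ENST00000007722, whose span also covers them and which carried 8 of the 13 TGF-β1 positions of the gene, is not given there. The 3'UTR had 3 positions after TGF-β1, with 2.99%, 7.62% and 11.0%, and 0 in control. The coding sequence had 8 positions after TGF-β1 with a median of 4.32%, and 4 in control with a median of 3.59%. Position 50071436 had 1.74% after TGF-β1, and position 50071426, 10 bases away, had 4.54% in control. The remaining control-only position, 50087761, had 2.28% and lies 2 bases from the shared position 50087763.

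**Figure D4:**
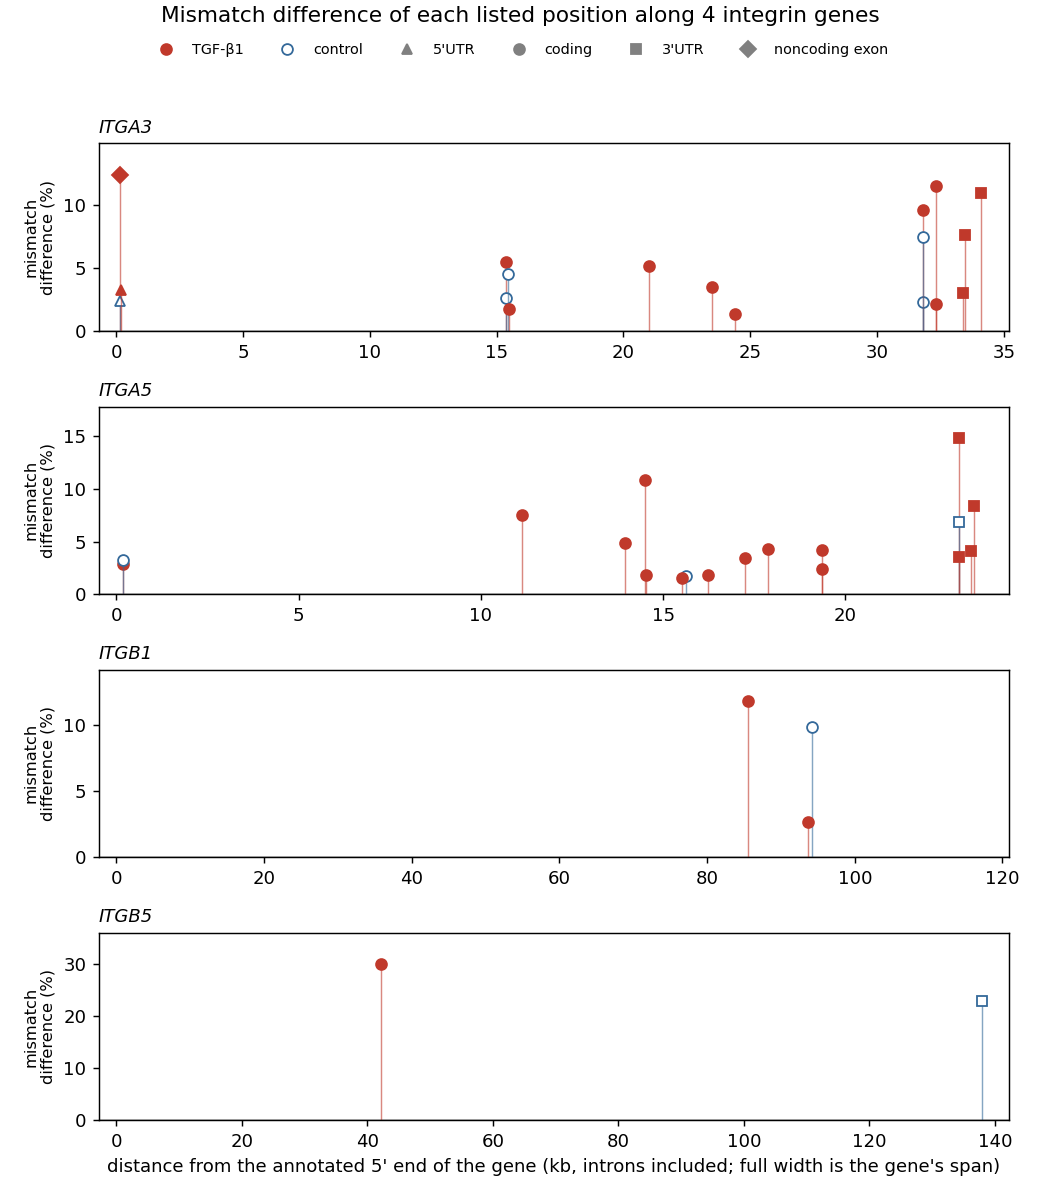
Mismatch difference (vertical axis, percent) of each listed position against its distance from the annotated 5' end of the gene (horizontal axis, kb, introns included) in ITGA3, ITGA5, ITGB1 and ITGB5. Filled red symbols are TGF-β1, open blue symbols control, and the shape gives the transcript segment; ITGA3 and ITGA5 carry positions along coding sequence and 3'UTR, while ITGB5 has 1 position per table.

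ITGB1 (ENSG00000150093) codes for the beta subunit that all the alpha subunits named here can pair with. It had 2 coding positions after TGF-β1 and 1 in control on the minus strand of chromosome 10, none of them shared. After TGF-β1 the values were 11.8% at position 32920257 and 2.67% at position 32912088, with p-values of the authors of 3.37e-23 and 0.015. The control position, 32911570, had 9.83% (p-value of the authors 3.83e-33) and lies 518 bases from the second TGF-β1 position. The control value falls between the TGF-β1 values, and a change of 1 or more was met by 51.2% of all listed genes. Each of these positions was annotated to 22 or 23 transcripts of the gene. RefSeq also lists a pseudogene, ITGB1P1, and how reads that match both were counted is not given in the sources used here.

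ITGB5 (ENSG00000082781) codes for the beta subunit that pairs with the alpha V subunit as a vitronectin receptor. It had 1 position in each table, on the minus strand of chromosome 3, and these had the highest mismatch differences of any integrin position in their table. After TGF-β1 it was a coding cytidine at position 124859271 with 30.0% (p-value of the authors 3.38e-15), and in control a 3'UTR cytidine at position 124763523 with 23.0% and a p-value of exactly 0. These are different cytidines, 95748 bases apart on the genome, so the pair of values is no change at 1 position.

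The 3 beta positions after TGF-β1 had 2.67%, 11.8% and 30.0%, within and above the alpha range of 1.37% to 14.9%. The median mismatch difference of alpha positions was 4.13% after TGF-β1 (28 positions) and 2.94% in control (8), and that of beta positions was 11.8% (3) and 16.4% (2), beside 4.68% and 4.05% over all genes. At or above 10% were 5 of 28 alpha and 2 of 3 beta positions after TGF-β1, against 0 of 8 alpha and 1 of 2 beta positions in control. Together that is 7 of 31 after TGF-β1 (22.6%, 9.59 to 41.1) and 1 of 10 in control (10%, 0.253 to 44.5), and all genes had 18.5% and 12.4%. Both shares lie close to the background, with intervals that hold it.

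The 3 shared cytidines were 9.68% of the 31 TGF-β1 positions (2.04 to 25.8) and 30% of the 10 control positions (6.67 to 65.2), against 16.9% and 24.5% over all genes. Coding sequence held 22 of 31 positions after TGF-β1 (71.0%, 52.0 to 85.8) and 7 of 10 in control (70%, 34.8 to 93.3), against 76.3% and 74.7% of all positions. The 3'UTR held 7 of 31 after TGF-β1 (22.6%, 9.59 to 41.1) and 2 of 10 in control (20%, 2.52 to 55.6), against 12.0% and 12.6%. All these intervals hold the value over all genes. All 7 integrin 3'UTR positions after TGF-β1 were in ITGA3 or ITGA5, the genes that held 28 of the 31 positions.

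ITGA1, ITGA2 and ITGA11, the collagen-binding alpha subunits, and ITGAV, ITGB3 and ITGB4 had no row in either table used here, which gives no value for them. Of 16 other integrin subunits looked up by name, ITGAE alone was listed, with 3 positions after TGF-β1 and 0 in control; it pairs with ITGB7 as a receptor for E-cadherin.

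The genes that integrins work with were looked up in 4 lists. The background was 51.2% of all listed genes with more positions after TGF-β1, and 35.3% with fewer. Of 30 matrix ligands 23 were listed, 17 with more positions after TGF-β1 and 5 with fewer, with sums of 192 after TGF-β1 and 105 in control (ratio 1.83) and a median change of 2 per gene, against 1 over all listed genes. FN1, the fibronectin that ITGA5 binds, had 16 and 8 positions, the basement membrane collagen gene COL4A2 had 26 and 9, COL6A2 had 18 and 4, and COL5A1 had 16 and 8. After TGF-β1, 31 of the 48 shared ligand positions were higher, a smaller share than the 78.4% of all shared positions, and their median difference of 0.95 points stood beside 1.73 over all.

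Of 41 adaptors and kinases of adhesions 31 were listed, 15 with more positions after TGF-β1 and 13 with fewer, near the shares over all listed genes. The sums were 155 after TGF-β1 and 87 in control (ratio 1.78) and a median change of 0. TLN1, the talin that binds beta subunit tails and activates integrins, had 22 positions after TGF-β1 and 8 in control, the actin crosslinker FLNA had 33 and 11, and ACTN1, an alpha-actinin, had 15 and 6. ILK, the integrin-linked pseudokinase, had 4 and 0, while VCL, the talin-binding protein vinculin, had 1 and 6 and PXN, the scaffold paxillin, 4 and 5; these were picked after their values were seen. Of the shared adaptor positions 18 of 25 were higher after TGF-β1, with a median difference of 0.80 points, beside 78.4% and 1.73 points over all shared positions.

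Of 21 membrane partners of integrins 16 were listed, 13 with more and 3 with fewer positions after TGF-β1 (123 and 59, ratio 2.08, median change 2). PLEC, the plectin that links ITGB4 to keratin filaments, had 74 after TGF-β1 and 26 in control, and without it the list had 49 and 33 (ratio 1.48). The syndecans SDC1 and SDC4, heparan sulfate coreceptors, had 6 and 4 and 5 and 3, and the endocytic receptor LRP1 had 1 and 7. Of 17 genes of integrin trafficking 12 were listed, 9 with more and 3 with fewer (46 and 23, ratio 2, median change 1.5). The dynamin DNM2 had 11 and 4 positions, EHD1, an endosomal recycling ATPase, 9 and 3, MYO10, a myosin that carries integrins into filopodia, 6 and 4, and SNX17, a sorting nexin that binds beta subunit tails and recycles integrins, 5 and 1. Each of these 4 ratios was above the 1.46 of all genes and below the 3.10 of the integrin subunits. The ligand and adaptor ratios were below the 1.89 of the 338 genes with 10 or more listings. Without the gene with most listings, the ratios were 1.73 for ligands, 1.61 for adaptors, 1.48 for membrane partners and 1.84 for trafficking genes. All of these are below 1.89. The integrin ratio was 3.60 without ITGA3 and 2.29 without ITGA5, the integrin genes with most listings, and it rests on 41 listings. The stellate cell and myofibroblast markers, with 32 and 9 positions, had a ratio of 3.56. The differences between lists were not tested.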

How the data were processed

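The authors deposited 1 table per group, TGF-β1 and control, each from 2 libraries, with a line per cytidine position and overlapping transcript. The submitters' processing notes name build hg38, STAR 2.7.6a, fastp 0.23.1 and featureCounts without their roles. The sources used here do not give the program that called the positions, or its filters. The mismatch difference was deposited as a fraction of at least 0.01, per the file headers and the values, and is printed in percent. The p-value is the authors' own, below 0.05 at every position; whether it was adjusted is not stated. Depth is unknown.

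Lines were merged to 1 per position and gene, and positions were counted per gene and compared between tables by chromosome, base and strand (Python 3.11.15, pandas 2.3.3, scipy 1.17.1). The end coordinate was read as the 1-based position: all 213 TGF-β1 and 155 control positions inside RefSeq promoter windows (GRCh38.p14) had C there on their strand. No sequence is printed, because none of the integrin positions lay in those windows.

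No test between groups was possible with 1 value per position and group. All integrin genes are named, with every shared position and the 2 highest single-table positions per gene; up to 4 genes per list are those with most listings, and 1 gene that this rule names is not reported here. The members and lists were chosen with earlier results of these data known. The counting steps were tested on simulated data.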

Additional observations from a re-analysis of the deposited data

How the results depend on the processing

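The ratio of listed positions kept its direction for all integrin genes (2.29 to 4.17) and for the alpha subunits (2.60 to 5.75) under all alternatives run: a mismatch difference of 5% or more, an authors' p of 0.001 or less, coding positions alone, positions with a p of exactly 0 left out, the TGF-β1 list reduced by lowest p to as many positions as control has, positions within 10 bases counted once, and each listed gene left out. Direction here means a ratio above 1. All genes together also had such a ratio, 1.46 in the main setting, so keeping it does not set the integrin genes apart. The ratio over all genes was not computed under the alternatives, but the shortened list has as many positions as control by construction. No integrin position was annotated to several genes. The shortened list gave 25 positions after TGF-β1 and 10 in control (ratio 2.5), and leaving out ITGA5 gave 16 and 7 (2.29). At 5% or more 13 and 4 integrin positions remained of 31 and 10, and at the stricter p 25 and 6. The ratio of the beta subunits rests on 5 listings and ran from 1 to 3: it was 1, with no direction, under the 5% minimum, the stricter p, the shortened list and without ITGB1, and 3 with coding positions alone and with positions of p exactly 0 left out. The median difference at shared positions was 2.87 points with 3 positions, and 2.53 to 8.06 under the alternatives; without ITGA3 it was 8.06 points, from 1 position. On the log2 scale the median was 1.06. No alternative per protein length was run. No paired analysis was possible because each group has 1 table, with no values per library, and for the same reason no library could be left out.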
